A study of Homo sapiens with 12 samples.

Results

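The mRNAs of 5 high mobility group (HMG) chromatin proteins, HMGA1, HMGB1, HMGB2, HMGN1 and HMGN2, were followed through a study of RNA binding by Staufen1 (STAU1) in HEK293T cells, a human embryonic kidney cell line. Their members were the poly(A) sites, the positions at which transcripts end, that lie in a fixed hg19 window on the strand of each gene and had at least 10 reads in any library. The rule gave 15 of the 640413 sites in the table of pull-downs and 11 of the 189010 sites in the table of cell fractions. In all, 19 distinct positions were members in either table and 7 in both.

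HMG proteins are small, abundant non-histone proteins that bind chromatin. HMGA1 binds AT-rich DNA through AT-hook motifs, HMGB1 and HMGB2 bend DNA with their HMG boxes, and HMGN1 and HMGN2 bind nucleosomes. HMGB1 also acts outside cells as an inflammatory signal. STAU1 is a protein that binds double-stranded RNA, and structures in the 3′ untranslated region of an mRNA are among its known binding places, so that transcripts of a gene with short and long 3′ ends can offer it different sequence.

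All pull-down and input libraries came from STAU1-knockout cells of a single clone (C8), made by double nicking with Cas9n, in which a FLAG-tagged protein was expressed transiently. The 4 groups, with 2 libraries each, were RNA pulled down with anti-FLAG from cells with STAU1-FLAG (STAU1 IP), total poly(A)+ RNA of such cells (STAU1 input), RNA pulled down with anti-FLAG from cells with FLAG-GFP (GFP IP) and total poly(A)+ RNA of those cells (GFP input). The tagged STAU1 was thus the transiently expressed protein, in cells without their own, and GFP served as the unrelated tagged protein. Another 4 libraries, 1 for each group, held polysomal and cytoplasmic RNA of the knockout (KO) and of wild-type cells (WT), with no tagged protein named for them. The protocols name clone C9 as isogenic control. The labels number the replicates but do not say that they are separate cultures, so that p-values measure the spread between these samples, which may be technical.

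Each read of the 3′READS+ method marks the end of 1 polyadenylated fragment, and a site's count is therefore not scaled by transcript length. Library totals were between 5727812 and 6212606 reads in STAU1 IP, 5567893 and 9655646 in STAU1 input, 1245270 and 1291888 in GFP IP, and 7636541 and 8932299 in GFP input. The fraction libraries held between 2799226 and 3483937 reads. Replicate 1 of the STAU1 input was the shallowest input, with 5567893 reads at 99156 sites, against 9655646 reads at 175098 sites in replicate 2. Calls lost or gained without replicate 1, and changes of sign, are given with the values concerned. The files name no gene for a site. The chromosomes of the 5 windows are those of the genes in RefSeq, but whether a site lies in an exon, an intron or a 3′ untranslated region was not determined, since the annotation at hand is of another build (GRCh38.p14). RefSeq also lists 8 pseudogenes named after HMGA1, 50 after HMGB1, 1 after HMGB2, 38 after HMGN1 and 48 after HMGN2. The sources used here do not say how reads matching several such copies were counted. The levels, above all of HMGB1, HMGN1 and HMGN2, may thus hold reads of such copies or lack reads lost to them.

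The question put to the pull-downs was which HMG 3′ ends the STAU1 IP held above its input, and whether the GFP IP did the same. Of the 15 sites, 10 passed the filter on low counts and were tested with edgeR's quasi-likelihood test, adjusted by Benjamini and Hochberg over all 33744 sites tested. HMGA1 was higher in STAU1 IP than in input and lower in GFP IP than in input. HMGN1 was lower in STAU1 IP than in its input, and HMGB1 was lower in GFP IP than in its input. For neither gene was a difference between the pull-downs called. HMGB2 and HMGN2, which had few reads, were not called in either pull-down. In numbers, 1 of the 10 sites was called higher in STAU1 IP, where 3.06% of all tested sites were, and 1 was called lower, where 2.99% were. In GFP IP, 0 of the 10 were called higher, where 2.11% of all sites were, and 2 were called lower, where 3.99% were. At an unadjusted p under 0.05, edgeR gave 1 higher and 4 lower HMG sites in STAU1 IP, where 10.4% of all sites were higher and 8.72% lower. In GFP IP it gave 0 higher and 4 lower at that level, where 6.34% of all sites were higher and 10.3% lower. DESeq2 called 1 higher and 1 lower in STAU1 IP, where it called 4.46% and 3.54% of all sites. In GFP IP it called 0 higher and 2 lower, where it called 3.64% and 3.75% of all sites.

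**Figure D1:**
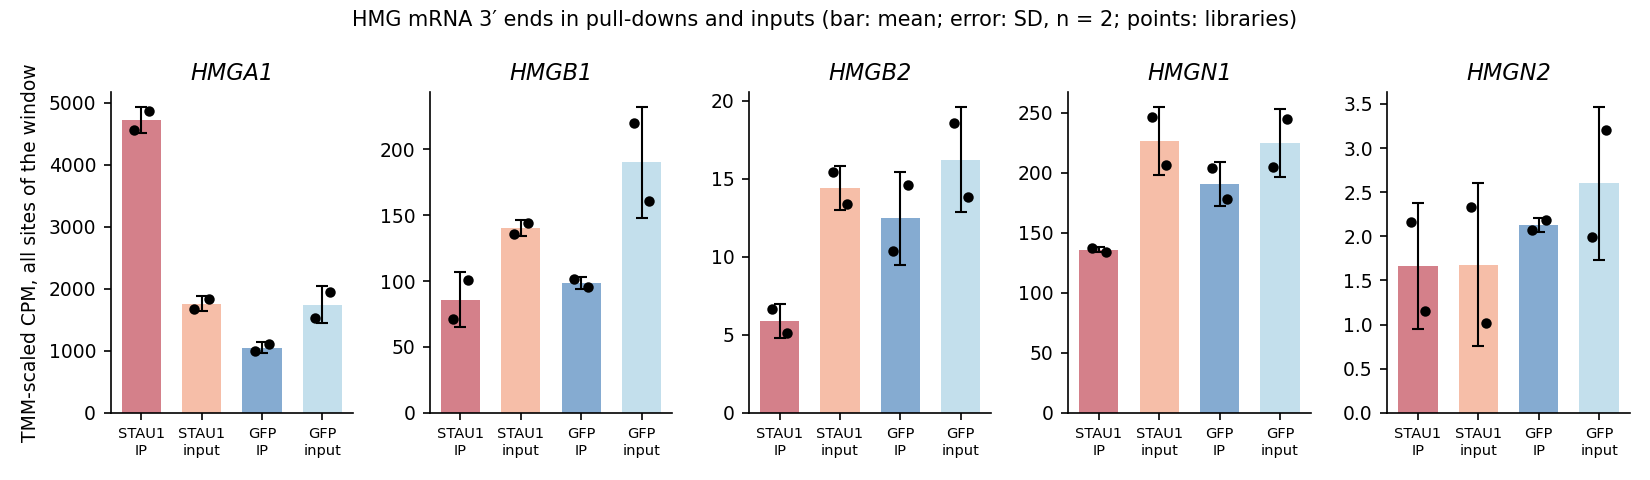
Level of each HMG mRNA, summed over all sites of its window, in CPM (reads relative to the library's total, scaled by TMM; y axis, a separate linear scale for each gene) in the 4 pull-down and input groups (x axis). Bars are means of 2 libraries, error bars are SD and points are libraries. HMGA1 averaged 4719 CPM in STAU1 IP against 1760 CPM in STAU1 input, while the other 4 genes had no mean in STAU1 IP above that of its input.

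HMGA1, whose protein carries the AT-hooks, was the most abundant of the 5 mRNAs in all pull-downs and inputs and had a single main end, on chromosome 6 (plus strand) at 34214007, which took 99.9% of the window's reads. This end had 29561 and 29516 reads in STAU1 IP, 9346 and 16226 in STAU1 input, 1432 and 1525 in GFP IP, and 10767 and 15202 in GFP input. On the TMM-scaled CPM scale it averaged 4715 ± 209 CPM in STAU1 IP and 1760 ± 118 CPM in STAU1 input, and 1051 ± 86 CPM in GFP IP and 1740 ± 298 CPM in GFP input (SD, n = 2 each). The libraries of STAU1 IP lay above all 6 others, and those of GFP IP below all 6 others. Among all sites ordered by reads it ranked 18 and 16 in the STAU1 IP libraries, with 0.476% and 0.515% of their reads, against 67 and 63 in STAU1 input, with 0.168% in each.

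The HMGA1 end was higher in STAU1 IP than in STAU1 input by 1.42 ± 0.16 (log2 change ± SE, a 2.68-fold difference for the window; edgeR adjusted p = 2.34e-05). In GFP IP it was lower than in GFP input, with a log2 change of -0.73 ± 0.16 (edgeR adjusted p = 0.0085). The difference of both, called the double ratio here, was 2.15 ± 0.23 on the log2 scale (edgeR adjusted p = 0.000236), which placed it at rank 2 by p-value among the 33744 sites. Only 1 of the 10 HMG sites was called higher in the double ratio, where 0.53% of all tested sites were, and 0 were called lower, where 0.157% were. At an unadjusted p under 0.05, edgeR gave 1 higher, where 7.5% of all sites were, and 1 lower. DESeq2 called 1 higher, where it called 1.26% of all sites, and 0 lower, where it called 0.936%. By size alone 18.2% of all tested sites had a larger double ratio. Among the 526 sites with an average log2 CPM of at least 8, only 2 had a larger double ratio, and 12 had a larger change in STAU1 IP. In GFP IP, 33.8% of those 526 sites had a lower change than HMGA1, and their median was -0.32. The lower level in GFP IP was no longer called without replicate 1 of the GFP IP (edgeR adjusted p = 0.138) or with libraries scaled by their totals (log2 change -0.42, edgeR adjusted p = 0.0957). Both the STAU1 call and the call of the double ratio held in every alternative run that used all libraries. Over all runs, including those with a library left out, the double ratio lay between 1.98 and 2.41.

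Apart from that end, HMGA1 had 3 minor ends, 612, 385 and 216 nt upstream, with 17, 13 and 13 reads over all 8 libraries. Each of them had its reads in a single STAU1 IP library and none elsewhere. They fell below the filter on low counts and were not tested.

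**Figure D2:**
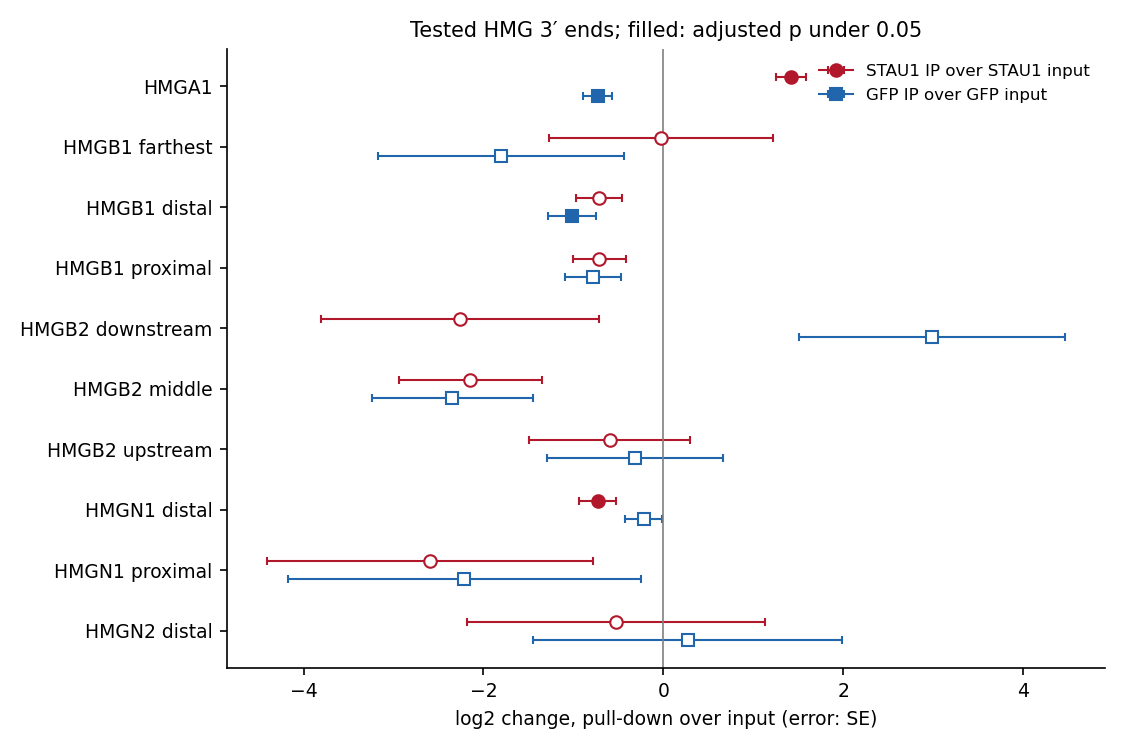
Log2 change (x axis) of the 10 tested HMG 3′ ends (y axis) in the STAU1 pull-down over STAU1 input (circles) and the GFP pull-down over GFP input (squares), with SE from the edgeR fit. Filled symbols have an adjusted p under 0.05. HMGA1 lies at 1.42 for STAU1 and -0.73 for GFP, whereas both main ends of HMGB1 lie below 0 in both pull-downs.

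HMGB1, the DNA-bending protein that is also released as a signal, had a distal end on chromosome 13 (minus strand) at 31033990 with 60.2% of the window's reads and a proximal end at 31035033, 1043 nt upstream, with 37.1%. The distal end had 293 and 370 reads in STAU1 IP, 433 and 855 in STAU1 input, 83 and 70 in GFP IP, and 905 and 709 in GFP input. Its level was 53.1 ± 11.1 CPM in STAU1 IP and 87.4 ± 13.8 CPM in STAU1 input, and 54.2 ± 4.5 CPM in GFP IP and 109.8 ± 26.6 CPM in GFP input (SD, n = 2 each). In both pull-downs the libraries lay below those of their own input. The change was called in GFP IP, where log2 was -1.02 ± 0.27 (edgeR adjusted p = 0.0276), and not in STAU1 IP, where it was -0.72 ± 0.26 (edgeR adjusted p = 0.116). The double ratio was 0.30 ± 0.37 (edgeR adjusted p = 0.841), so that a difference between the pull-downs was not shown.

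For the proximal HMGB1 end the counts were 146 and 233 reads in STAU1 IP, 305 and 397 in STAU1 input, 62 and 59 in GFP IP, and 591 and 497 in GFP input. It was also lower in every IP library than in those of its own input, with log2 changes of -0.71 ± 0.29 in STAU1 IP (edgeR adjusted p = 0.19) and -0.78 ± 0.31 in GFP IP (edgeR adjusted p = 0.177). Neither was called, and its double ratio was 0.07 ± 0.43 (edgeR adjusted p = 0.993). Another 2 members were rare: an end 1056 nt downstream of the distal one, with 2 to 40 reads per library, and an end 29 nt downstream, with 24 reads in all, 15 of them in STAU1 input replicate 1. Summed over its window, HMGB1 had 71.1 and 101 CPM in STAU1 IP, 136 and 144 CPM in STAU1 input, 102 and 95.5 CPM in GFP IP, and 220 and 160 CPM in GFP input. The sum was called lower in GFP IP (log2 change -0.95 ± 0.24, edgeR adjusted p = 0.0199) and not in STAU1 IP (-0.71 ± 0.23, edgeR adjusted p = 0.0821). With a library left out, the sum's log2 change in STAU1 IP lay between -1.04 and -0.50. A call was gained there without STAU1 IP replicate 2 and without either GFP input library. The GFP inputs do not enter that comparison and act on it only through the shared filter, scaling and dispersion. The calls of HMGB1 in GFP IP were lost without GFP IP replicate 1, GFP IP replicate 2 or GFP input replicate 1, and with library totals, where the distal end's log2 change was -0.71 (edgeR adjusted p = 0.152). With RLE size factors the distal end was at -0.87 (edgeR adjusted p = 0.0588).

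HMGB1 was the gene in which a proximal and a distal end each had 59 or more reads in every pull-down and input library. Whether they mark a short and a long isoform of the mRNA was not determined. The proximal end took 33.3% and 38.6% of the reads of both ends in STAU1 IP, 41.3% and 31.7% in STAU1 input, 42.8% and 45.7% in GFP IP, and 39.5% and 41.2% in GFP input. STAU1 IP and its input overlapped, and the STAU1 input libraries lay farther apart than the STAU1 IP libraries. The log2 change of distal over proximal reads was 0.03 ± 0.49 in STAU1 IP (edgeR adjusted p = 0.987 over 3617 pairs of sites), -0.23 ± 0.50 in GFP IP (edgeR adjusted p = 0.893) and 0.26 ± 0.70 in the double ratio (edgeR adjusted p = 0.952). Without STAU1 input replicate 1 the change was -0.27 in STAU1 IP and -0.043 in the double ratio, and without STAU1 IP replicate 1 it was -0.14 in STAU1 IP. Of all pairs, 0.304% were called with a higher and 0.0829% with a lower distal share in STAU1 IP, and 0 of the 2 HMG pairs were, by edgeR, also at an unadjusted p under 0.05. With an SE of 0.49, a change of the ratio of distal to proximal reads of that size could not have been told from none.

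**Figure D3:**
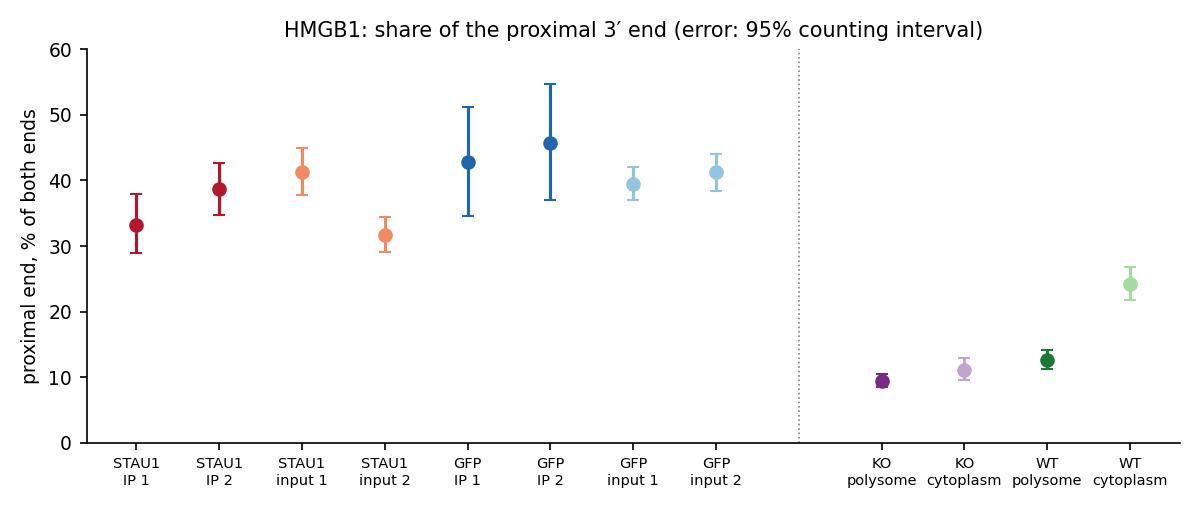
Share of the proximal end in the reads of both main HMGB1 ends (y axis, %) in each of the 12 libraries (x axis), with 95% counting intervals (exact for pull-downs and inputs, Wilson for fractions). The pull-down and fraction tables, left and right of the dotted line, were processed separately. The 8 pull-down and input libraries lie between 31.7% and 45.7%, and WT cytoplasm, at 24.1%, is the highest of the 4 fraction libraries.

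HMGB2, the close relative of HMGB1, was rare, with 31 to 131 reads per library over its window except in GFP IP, where 15 and 20 were read. Most of its reads fell on 3 neighbouring ends on chromosome 4 (minus strand), a middle one at 174252853, an upstream one at 174252905, 52 nt away, and a downstream one at 174252786, 67 nt away. Summed over its window it had 6.64 and 5.11 CPM in STAU1 IP, 15.4 and 13.4 CPM in STAU1 input, 10.4 and 14.6 CPM in GFP IP, and 18.6 and 13.9 CPM in GFP input. The STAU1 IP libraries were thus the lowest of the 8, while the GFP groups overlapped. The log2 change was -1.29 ± 0.48 in STAU1 IP (edgeR adjusted p = 0.135) and -0.38 ± 0.50 in GFP IP (edgeR adjusted p = 0.771), and neither was called.

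The 3 HMGB2 ends were not shared out alike among the libraries. The middle end had 6 and 15 reads in STAU1 IP, 55 and 47 in STAU1 input, 2 and 4 in GFP IP, and 101 and 59 in GFP input, with log2 changes of -2.15 ± 0.80 in STAU1 IP (edgeR adjusted p = 0.135) and -2.34 ± 0.89 in GFP IP (edgeR adjusted p = 0.16). Without STAU1 input replicate 2 the middle end was called lower in STAU1 IP (log2 change -2.53, edgeR adjusted p = 0.0407). The upstream end had 30 and 11 reads in STAU1 IP, 24 and 48 in STAU1 input, 6 and 3 in GFP IP, and 23 and 36 in GFP input, with log2 changes of -0.59 ± 0.90 in STAU1 IP (edgeR adjusted p = 0.785) and -0.31 ± 0.98 in GFP IP (edgeR adjusted p = 0.926). These groups overlapped for the upstream end and did not for the middle end. The downstream end had 0 and 3 reads in STAU1 IP, 7 and 11 in STAU1 input, 7 and 13 in GFP IP, and 7 and 6 in GFP input. It took 46.7% and 65% of the HMGB2 reads in GFP IP, with 95% Wilson intervals of 24.8% to 69.9% and 43.3% to 81.9%, against 5.34% and 5.56% in GFP input, with intervals of 2.61% to 10.6% and 2.57% to 11.6%. Its log2 change was 2.99 ± 1.48 in GFP IP (edgeR adjusted p = 0.326) and -2.26 ± 1.54 in STAU1 IP (edgeR adjusted p = 0.46). The double ratio of this end was -5.25 ± 2.14 (edgeR adjusted p = 0.352), the farthest from 0 of the 10 HMG sites. It was the 1 HMG site lower in the double ratio at an unadjusted p under 0.05 in edgeR, where 3.63% of all sites were, and no call was made on these few reads. The intervals cover counting error only, since reads amplified by PCR without molecular identifiers are not independent molecules. Libraries of the same group also differed by more than such intervals. The middle end took 77.1% (69.2% to 83.5%) and 54.6% (45.2% to 63.7%) of the HMGB2 reads in GFP input. The upstream end took 69.8% (54.9% to 81.4%) and 35.5% (21.1% to 53.1%) in STAU1 IP.

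**Figure D4:**
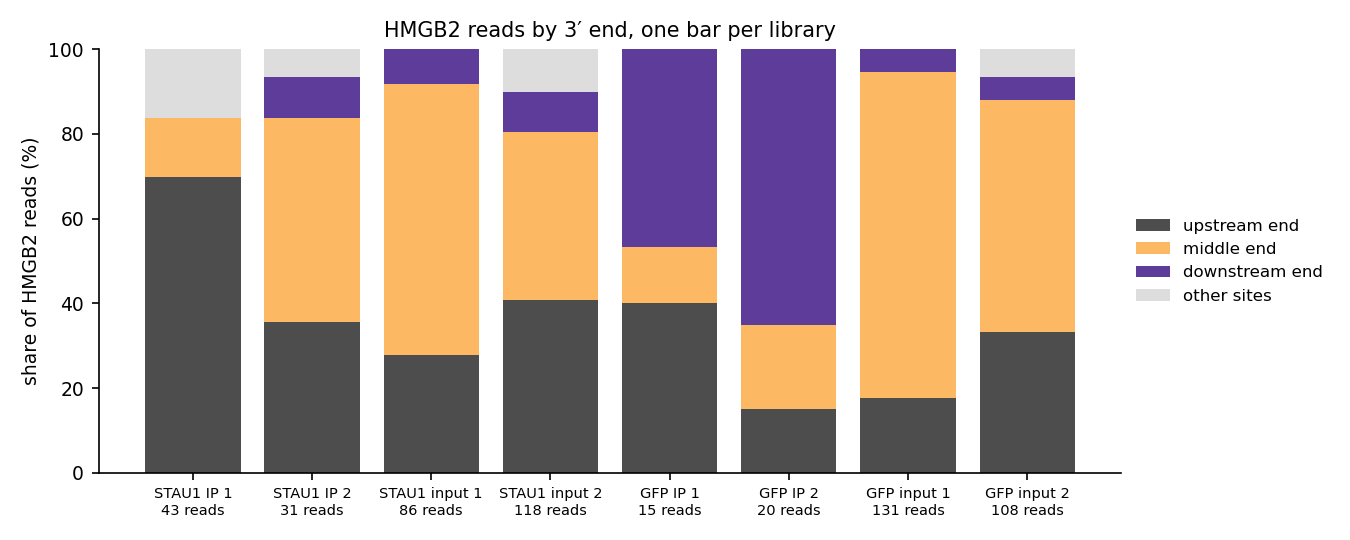
Share of each HMGB2 end in the window's reads (y axis, %) for each of the 8 pull-down and input libraries (x axis, with the number of HMGB2 reads), 1 stacked bar per library. The downstream end takes 46.7% and 65% in the GFP IP libraries and at most 9.68% in the other 6.

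HMGN1, a nucleosome-binding protein encoded on chromosome 21, had 98.8% of its reads at an end on the minus strand at 40714247. There were 890 and 805 reads in STAU1 IP, 1374 and 1781 in STAU1 input, 294 and 243 in GFP IP, and 1416 and 1879 in GFP input. The level was 135.1 ± 3.5 CPM in STAU1 IP and 224.4 ± 31.2 CPM in STAU1 input, and 190.2 ± 18.5 CPM in GFP IP and 221.1 ± 28.3 CPM in GFP input (SD, n = 2 each). The STAU1 IP libraries were below all others, whereas the GFP groups overlapped. The end was lower in STAU1 IP by a log2 change of -0.73 ± 0.20 (edgeR adjusted p = 0.0367), and in GFP IP the change was -0.22 ± 0.20 (edgeR adjusted p = 0.66). The double ratio was -0.51 ± 0.29 (edgeR adjusted p = 0.54), so that a difference between the pull-downs was not shown. The STAU1 call was lost without STAU1 input replicate 1 (log2 change -0.67, edgeR adjusted p = 0.21), without either STAU1 IP library (edgeR adjusted p = 0.197 without replicate 1 and 0.195 without replicate 2), without GFP IP replicate 2 (edgeR adjusted p = 0.0542) and with library totals (-0.60, edgeR adjusted p = 0.0798).

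A second HMGN1 end lay 458 nt upstream, at 40714705. It had 0 and 4 reads in STAU1 IP, 0 and 36 in STAU1 input, 1 and 1 in GFP IP, and 24 and 26 in GFP input. The shallowest input, STAU1 input replicate 1, was thus at 0 where the other 3 inputs had 24 to 36 reads. The log2 change of the main end relative to this one was 1.63 ± 1.53 in STAU1 IP (edgeR adjusted p = 0.688) and -0.37 ± 2.90 in the double ratio (edgeR adjusted p = 0.983), and in GFP IP it was not called either (edgeR adjusted p = 0.682). These values turned on single libraries. Without STAU1 input replicate 1 they were 3.03 in STAU1 IP (edgeR adjusted p = 0.311) and 1.03 in the double ratio (edgeR adjusted p = 0.924). Without STAU1 input replicate 2 the change was -4.65 in STAU1 IP (edgeR adjusted p = 0.258), and without STAU1 IP replicate 2 the double ratio was 3.52 (edgeR adjusted p = 0.861).

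HMGN2, the other nucleosome-binding member, had few reads in its window, and how reads matching its 48 named pseudogenes were counted is not known. Its ends on chromosome 1 (plus strand), at 26803131 and 670 nt upstream at 26802461, had 52 and 24 reads in all 8 libraries. Over the window it had 2.16 and 1.15 CPM in STAU1 IP, 2.33 and 1.02 CPM in STAU1 input, 2.07 and 2.19 CPM in GFP IP, and 1.99 and 3.21 CPM in GFP input. The groups overlapped in both comparisons, and edgeR called the window's sum neither in STAU1 IP (adjusted p = 1) nor in GFP IP (adjusted p = 0.957).

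Between STAU1 input and GFP input, which compares total RNA of cells with tagged STAU1 and with tagged GFP, edgeR called 0 of the 10 HMG sites higher, where 0.00889% of all sites were, and 0 lower, where 0% were. The count was also 0 at an unadjusted p under 0.05, where 1.89% of all sites were higher and 2.12% lower, and by DESeq2, which called 0.0296% higher and 0% lower. Log2 changes ran from -2.05, for the rare HMGB1 end 1056 nt downstream, to 0.50, for the downstream HMGB2 end. The median over the 10 sites was -0.72 in STAU1 IP over input, -0.76 in GFP IP over input, -0.11 in the double ratio and -0.33 between the inputs, beside 0.12, -0.16, 0.30 and -0.08 over all tested sites. These medians describe the sites that passed the filter, and the 10 sites come from 5 genes. The STAU1 and GFP comparisons have no library in common, but they share a single fit and its dispersion. The double ratio uses the libraries of both.

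The sites whose level followed each HMG gene most closely were sought among 2232 sites with an average log2 CPM of at least 6, by Pearson correlation of log2 CPM over the 8 libraries. These points are shared between all sites and fall into 4 groups, so that r describes a pattern across groups and carries no p. HMGA1 was followed by the site at 38122397 on chromosome 6 (plus strand), with r = 0.991, 96023575 on chromosome 12 (minus strand), with r = 0.987, and 89630949 on chromosome 16 (plus strand), with r = 0.987. All 3 lay above input in STAU1 IP, by log2 changes of 1.19, 1.88 and 1.33, and below it in GFP IP, at -0.69, -0.61 and -0.89. These directions follow from the choice of sites by their likeness to HMGA1 over the same libraries, and are no separate result. In all, 112 of the 2232 sites had r over 0.9 with HMGA1, 131 with HMGB1, 28 with HMGB2, 50 with HMGN1 and 0 with HMGN2. The closest to HMGB1 was at 78183946 on chromosome 14 (minus strand; r = 0.994), the closest to HMGB2 at 50085409 on chromosome 14 (minus strand; r = 0.991), and the closest to HMGN1 at 47593366 on chromosome 11 (plus strand; r = 0.978). HMGN2, at 1 to 3 CPM, had no site above r = 0.778.

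The fractions addressed whether HMG mRNAs were found on polysomes to the same extent in cells with and without STAU1. With 1 library for each of the 4 groups there was no test. Values are log2 ratios of TMM-scaled counts with 95% counting intervals, and a site is counted when it lies past 1.5-fold. Scaling used 4766 sites whose count was 50 or more in every library, among them 4 HMG ends: the HMGA1 end, both main HMGB1 ends and an HMGN1 end at 40714242, 5 nt from that of the other table. Among these, 1 end was past 1.5-fold higher in polysomes in KO cells, where 9.71% of all sites were, and 1 in WT cells, where 12.5% were. None was past 1.5-fold lower, where 13.1% of sites were in KO and 15.8% in WT cells.

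HMGB1's distal end was the one past 1.5-fold in both genotypes. It had 735 CPM in KO polysomes and 422 CPM in KO cytoplasm, and 585 CPM in WT polysomes and 321 CPM in WT cytoplasm. The log2 ratio of polysomes to cytoplasm was 0.80 (0.70 to 0.90) in KO and 0.87 (0.75 to 0.99) in WT cells, with 3.80% of all sites higher in KO and 4.70% in WT cells. HMGN1 had 419 CPM in KO polysomes and 322 CPM in KO cytoplasm, and 625 CPM in WT polysomes and 420 CPM in WT cytoplasm, which gives 0.38 (0.26 to 0.50) in KO and 0.57 (0.46 to 0.68) in WT cells. HMGA1, the mRNA held by the STAU1 IP, had 541 CPM in KO polysomes and 559 CPM in KO cytoplasm, and 719 CPM in WT polysomes and 697 CPM in WT cytoplasm. Its ratio of polysomes to cytoplasm was -0.05 (-0.14 to 0.05) in KO and 0.05 (-0.05 to 0.14) in WT cells, so that both intervals held 0. Scaling by library totals moved these ratios up, to 0.17 (0.07 to 0.26) in KO and 0.30 (0.21 to 0.39) in WT cells for HMGA1, and neither interval then held 0.

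**Figure D5:**
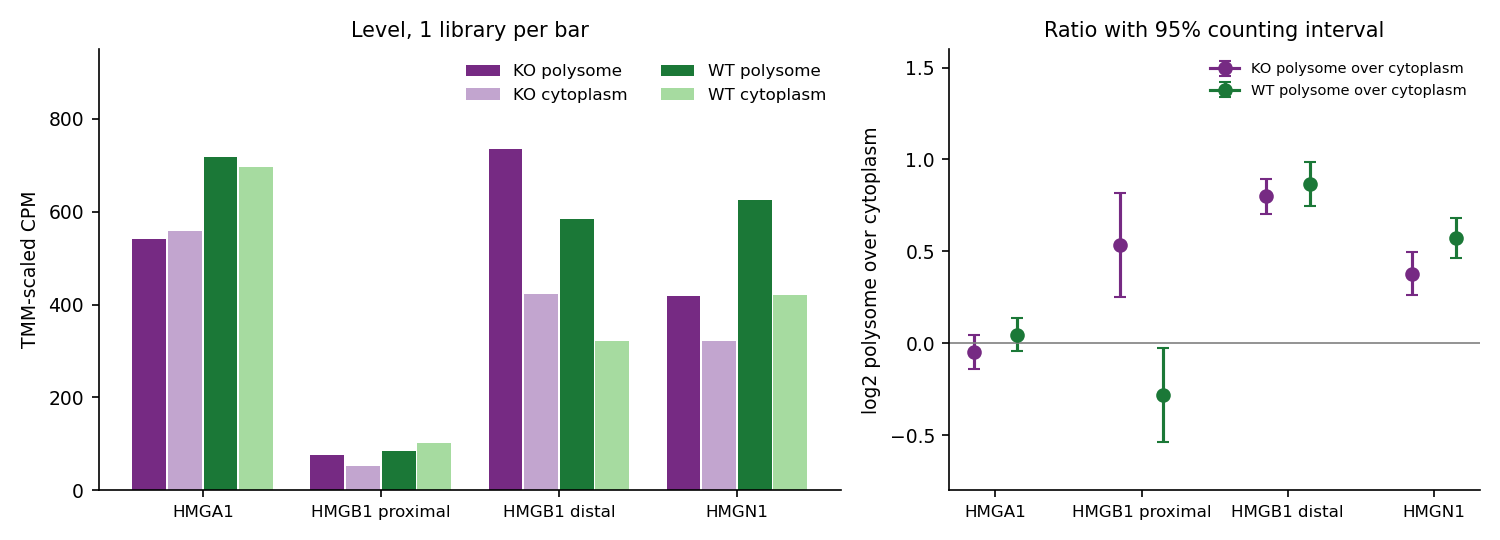
Left, TMM-scaled CPM (y axis) of the 4 HMG ends with at least 50 reads in each fraction library, 1 library per bar. Right, log2 ratio of polysomes to cytoplasm (y axis) in KO and WT cells with 95% counting intervals. The distal HMGB1 end lies at 0.80 and 0.87, and its proximal end lies above 0 in KO cells, at 0.53, and below 0 in WT cells, at -0.28.

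In KO against WT cells, HMGA1 was lower in both fractions, with log2 ratios of -0.32 (-0.41 to -0.22) in cytoplasm and -0.41 (-0.50 to -0.32) in polysomes. HMGN1 was also lower in both, at -0.38 (-0.51 to -0.26) in cytoplasm and -0.58 (-0.67 to -0.48) in polysomes. The distal HMGB1 end went the other way, at 0.40 (0.27 to 0.52) in cytoplasm and 0.33 (0.24 to 0.42) in polysomes. None of these 3 ends passed 1.5-fold, where in cytoplasm 9.63% of all sites were higher and 9.86% lower, and in polysomes 6.78% higher and 6.95% lower. With 1 library each, the spread between cultures is unknown. The change of polysome association, KO minus WT, was -0.09 (-0.22 to 0.04) for HMGA1 (with library totals -0.14, -0.27 to -0.0070), -0.07 (-0.22 to 0.09) for the distal HMGB1 end and -0.19 (-0.35 to -0.03) for HMGN1, all within 1.5-fold, where 5.94% of all sites were past it on the lower side.

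The proximal HMGB1 end differed from the distal one here. It had 293 reads (76.7 CPM) in KO polysomes and 162 (52.9 CPM) in KO cytoplasm, and 252 (83.9 CPM) in WT polysomes and 266 (102 CPM) in WT cytoplasm. The KO cytoplasm was lowest and the WT cytoplasm highest. Its ratio of polysomes to cytoplasm was 0.53 (0.25 to 0.82) in KO and -0.28 (-0.54 to -0.03) in WT cells. Scaled by library totals, the WT value was -0.02 (-0.28 to 0.23). In KO against WT cytoplasm it was at -0.95 (-1.24 to -0.66), past 1.5-fold lower, and 97.7% of the 4766 sites had a higher value. In polysomes the ratio was -0.13 (-0.38 to 0.12). KO minus WT of its polysome association was 0.82 (0.43 to 1.20), past 1.5-fold higher like 6.44% of all sites, and 2.01% of sites were higher still.

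As a share of both HMGB1 ends, the proximal one took 9.45% in KO polysomes (95% Wilson interval 8.47% to 10.5%) and 11.1% in KO cytoplasm (9.63% to 12.9%). It took 12.5% in WT polysomes (11.2% to 14.1%) and 24.1% in WT cytoplasm (21.7% to 26.8%). The WT cytoplasm library stood above the other 3 by more than counting error. Distal over proximal reads were higher in KO than in WT cytoplasm by 1.34 (1.03 to 1.66) on the log2 scale, past 1.5-fold like 15.9% of 1005 pairs of sites, with 11.8% past it on the other side, and 0.597% of pairs were higher still. In polysomes the same ratio was 0.46 (0.20 to 0.72), within 1.5-fold, where 10.8% of pairs were past it on the higher and 7.06% on the lower side. The result rests on 1 WT cytoplasm library, and how much it would vary in a repeat cannot be told from these data. In the pull-down experiment, STAU1 IP against its input gave 0.03 ± 0.49 for the same pair. The proximal share there was 31.7% to 45.7%, in libraries processed separately and all from KO cells with a tagged protein. The replicates of STAU1 input alone stood at 41.3% and 31.7%.

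HMGB2 and HMGN2 also had few reads in the fractions. HMGB2 had 45 reads in KO polysomes and 45 in KO cytoplasm, and 36 in WT polysomes and 22 in WT cytoplasm over its whole window, most of them at 3 ends, of which 2 were those of the pull-down table and another lay at 174252704. The remaining HMGN1 ends, at 40714491 and 40714705, had 4 to 20 reads per library. HMGN2 had 36 reads in KO polysomes and 11 in KO cytoplasm, and 46 in WT polysomes and 26 in WT cytoplasm. The log2 ratio of polysomes to cytoplasm was -0.32 (-0.95 to 0.31) in KO and 0.51 (-0.30 to 1.34) in WT cells for HMGB2, and 1.39 (0.38 to 2.51) in KO and 0.62 (-0.11 to 1.37) in WT cells for HMGN2. Of these 4 intervals, 3 held 0. In KO against WT cells, HMGB2 was at 0.80 (0.04 to 1.61) in cytoplasm and -0.03 (-0.69 to 0.65) in polysomes. HMGN2 was at -1.47 (-2.64 to -0.41) in cytoplasm and -0.70 (-1.37 to -0.04) in polysomes. KO minus WT of polysome association was -0.83 (-1.88 to 0.22) for HMGB2 and 0.77 (-0.52 to 2.12) for HMGN2. With these few reads and 1 library each, no difference was tested.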

How the data were processed

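Per poly(A) site, the authors deposited raw counts of reads, 1 column per library, in 1 table for pull-downs and inputs and another for the fractions. Per the submitters' processing notes, the aligner was STAR and the build hg19. The sources used here do not give versions, the clustering of sites or the treatment of reads with several matches. The members and lists were chosen with earlier results of these data known.

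The quasi-likelihood test of edgeR 4.0.16 (R 4.3.3) was fitted to 4 groups over 8 libraries, with TMM scaling, filterByExpr by group and 4 residual degrees of freedom, with Benjamini-Hochberg adjustment over all tested sites and a threshold of 0.05. Window sums replaced their sites in a second fit. Pairs were the 2 sites with most reads in a run (gaps up to 5000 nt, at least 100 nt apart, 10 or more reads per library on average), fitted with library, site and site by group. The script was tested on simulated data. Fraction pairs needed 20 reads per site and library. Intervals of fraction ratios are exact counting intervals, and those of fraction shares and of HMGB2 shares are Wilson intervals. Members with at least 5% of their window's reads in a table were described one by one. Exceptions were the HMGN2 ends and, in the fractions, the HMGB2 ends, which had few reads and were summed over their window. Alternatives were RLE size factors, library totals, no filter, DESeq2 1.42.0, a replicate block, other pair rules, each library left out and, chosen after seeing the data, library sizes over tested sites only. A list of other HMG and nucleosome-handling genes, and the level of STAU1 as a check of the knockout, were not analysed here, since both need an annotation of the files' build.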

Additional observations from a re-analysis of the deposited data

Results flagged for a closer look

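The HMGA1 end at 34214007 drew attention because its double ratio was called. It was higher in both STAU1 IP libraries than in STAU1 input and lower in both GFP IP libraries than in GFP input. Its log2 double ratio was 2.15 (edgeR adjusted p = 0.000236). In GFP IP, 33.8% of the 526 sites with an average log2 CPM of at least 8 had a lower change than HMGA1, and their median was -0.32. Scaled by library totals, the GFP change of HMGA1 was -0.42 and was not called (edgeR adjusted p = 0.0957). The proximal HMGB1 end at 31035033 drew attention because its ratio of polysomes to cytoplasm was above 0 in KO and below 0 in WT cells. Scaled by library totals, the WT ratio was -0.02 (-0.28 to 0.23), an interval that held 0. The KO minus WT value was 0.82 on the log2 scale. This difference was not tested, since each fraction has 1 library.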

How the results depend on the processing

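In the pull-downs, HMGA1 kept its call in STAU1 IP and in the double ratio under every alternative that used all 8 libraries. With a library left out, its log2 change lay between 1.26 and 1.49 in STAU1 IP and 1.99 and 2.41 in the double ratio. Leaving out a library left 1 in its group and changed the filter and the shared dispersion. Between 46415 and 51904 sites were then tested, against 33744, so that calls in those runs were no stricter check. The count of HMG sites called lower in STAU1 IP, and likewise that of window sums, was 0 with library totals and 0 to 2 with a library left out. The counts called lower in GFP IP were 0 with library totals, for sites and sums, 1 with RLE size factors for sites, and 0 to 2 with a library left out. Some small changes turned sign. The double ratio of the proximal HMGB1 end was -0.062 with RLE size factors and -0.062 with DESeq2, -0.10 with library totals and -0.31 to 0.44 with a library left out. With library totals the GFP change was 0.0040 for the upstream HMGB2 end and 0.10 for the main HMGN1 end. The HMGB1 change of distal over proximal ran from -0.27 to 0.33 in STAU1 IP and from -0.043 to 0.56 in the double ratio with a library left out. That of HMGN1 ran from -4.65 to 5.53 in STAU1 IP and from -6.65 to 3.52 in the double ratio. In the fractions, the HMG ends past 1.5-fold higher in polysomes numbered 3 in KO cells with library totals, where 20.4% of all sites were. In WT cells they numbered 2 with library totals, where 25.7% of all sites were, and 2 with RLE size factors, where 13.1% were.

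Scaling moved all sites together: the median double ratio was 0.30 with TMM, 0.18 with RLE factors and 0.14 with library totals, and the median GFP change was -0.16 with TMM, -0.0019 with RLE factors and 0.13 with library totals. The replicate numbers were not used as pairs in the main fit. Deviations of same-numbered libraries correlated between -0.19 and 0.10, so that no strong shared deviation was seen. Whether same-numbered libraries share a culture cannot be told from this, and the labels do not say. A fit with the replicate block changed no HMG call and left the HMGA1 double ratio at 2.15. The shallow GFP IP libraries limit the GFP changes of HMGB2 and HMGN2, and 1 library per fraction allows no statement on variation between cultures.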
